A study of Mus musculus with 16 samples.

Results

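Cortical TEC and Foxn1 target genes were followed in medullary thymic epithelial cells (mTEC) of mice that lacked an RNA-binding Rbfox protein in the thymic epithelium. The set held 10 genes, Psmb11, Prss16, Dll4, Ccl25, Cxcl12, Ly75, Ackr4, Ctsl, Tbata and Kitl, which were taken from the gene count table by matching Ensembl identifiers to mouse symbols. They were 10 of 53464 Ensembl genes, in a table of 89407 rows that also held loci assembled by the authors. The question was whether these genes follow Foxn1, whose transcript was already known to be higher in the knockout libraries of these data.

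The study sorted mature and immature mTEC from 8 mice and sequenced polyadenylated RNA of each population of each mouse, which gave 16 libraries in 8 conditions of 2 mice. All mice were C57BL/6 by the labels, of a mixed background by the methods, and 4 to 6 weeks old by the labels; the methods give 4 weeks for these mice, and name the controls as littermates matched for sex. By the labels each line had 1 female and 1 male mouse per genotype. Control mice carried Rbfox1 lox/lox or Rbfox2 lox/lox with Foxn1 wt/wt, and tissue-specific knockout (tKO) mice carried the same floxed alleles with Foxn1 wt/cre, in which Cre recombinase is expressed from the Foxn1 locus in thymic epithelium. Both populations were gated as CD45-, EpCAM+, Ly51- and UEA+, with MHCII high cells called mature and MHCII low cells called immature.

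Every tKO mouse carried the Cre allele and no control mouse did, so the allele and the loss of the Rbfox protein cannot be told apart in any comparison of tKO with control. The 2 lines were separate sets of mice. The Ly51- gate is meant to remove cortical TEC by their surface marker. Whether some remained was not tested, so the values below are levels of these genes in cells sorted as medullary. The paper reports a larger share of cortical cells among the TEC of Rbfox2 tKO mice, and the part of such cells in these values was not tested. In such bulk samples, a larger share of cells with a transcript and more transcript per cell cannot be told apart.

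Foxn1 is the transcription factor that drives the development and upkeep of the thymic epithelium, and many genes with which cortical TEC support developing T cells depend on it. Psmb11 encodes a catalytic subunit of the thymoproteasome, and Prss16 and Ctsl encode proteases that shape the peptides on MHC class II; all are known for positive selection. Dll4 is the Notch ligand that commits progenitors to the T cell lineage, Kitl is stem cell factor, and Ccl25 and Cxcl12 are chemokines for incoming progenitors and thymocytes, while Ackr4 is a scavenger receptor that removes CCL25 among others, Ly75 (DEC-205) is an endocytic receptor and Tbata is a thymic epithelial regulator of proliferation.

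The promoter sequences are shown because FOXN1 is known to bind a GACGC core, and the start sites of known targets are where that core can be read. In RefSeq windows of 300 bases (250 before and 50 after the start site, GRCm38.p6), 9 of the 10 genes had a window, and 4 of these 9 held GACGC or its reverse complement GCGTC. It was in the windows of Psmb11 (239 and 62 bases before the start), Ccl25 (56 before and 12 after, in 1 of its 2 windows), Cxcl12 (62 before) and Kitl (183 before). The windows of Dll4, Ly75, Ackr4, Ctsl and Tbata did not hold these letters. Of 27025 genes with a window, 29.6% held the core on either strand. The sequences are those of Psmb11, Ccl25 and Cxcl12, with a core near the start, and Dll4, whose immature level differed most between tKO and control; each is written 5′ to 3′ on the gene's strand, with the core in capitals.
Psmb11, chr14:54625060-54625359, + strand: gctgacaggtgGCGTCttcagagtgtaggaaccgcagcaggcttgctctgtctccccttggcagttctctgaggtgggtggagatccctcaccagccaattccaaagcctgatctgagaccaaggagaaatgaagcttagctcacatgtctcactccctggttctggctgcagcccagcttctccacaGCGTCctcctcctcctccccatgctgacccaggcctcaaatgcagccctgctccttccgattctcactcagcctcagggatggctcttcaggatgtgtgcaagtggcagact
Ccl25, chr8:4324960-4325259, + strand: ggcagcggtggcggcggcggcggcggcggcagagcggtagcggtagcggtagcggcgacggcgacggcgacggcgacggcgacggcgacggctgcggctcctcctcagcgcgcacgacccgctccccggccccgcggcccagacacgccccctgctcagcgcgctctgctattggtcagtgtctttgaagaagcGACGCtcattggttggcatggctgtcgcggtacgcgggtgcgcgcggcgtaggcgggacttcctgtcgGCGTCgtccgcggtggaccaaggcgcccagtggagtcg
Cxcl12, chr6:117168285-117168584, + strand: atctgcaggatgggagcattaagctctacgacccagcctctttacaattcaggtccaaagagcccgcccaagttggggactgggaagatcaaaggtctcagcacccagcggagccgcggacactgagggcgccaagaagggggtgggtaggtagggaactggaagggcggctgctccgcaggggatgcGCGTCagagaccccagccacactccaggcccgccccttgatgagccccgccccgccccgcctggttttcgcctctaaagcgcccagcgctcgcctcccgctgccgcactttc
Dll4, chr2:119325534-119325833, + strand: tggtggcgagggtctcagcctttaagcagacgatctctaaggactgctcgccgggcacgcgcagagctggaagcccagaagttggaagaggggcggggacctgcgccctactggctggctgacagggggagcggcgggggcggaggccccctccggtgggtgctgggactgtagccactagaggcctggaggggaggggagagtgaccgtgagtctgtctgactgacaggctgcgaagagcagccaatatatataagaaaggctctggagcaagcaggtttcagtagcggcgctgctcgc

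Library totals ran from 3737884 to 4636367 counts in mature mTEC (median 4313347) and from 1506134 to 2430287 in immature mTEC (median 1941275). Reads had been de-duplicated and down-sampled, to a lower number in immature than in mature cells by the column labels. The totals are thus not the full sequencing depth. Immature values rest on fewer counts than mature ones and have wider errors. Libraries of the same condition differed by more than sampling noise (chi-square per degree of freedom 1.78 to 2.74 over genes), so none was a repeat of another. The epithelial markers Epcam, Krt5 and Krt14 and the medullary markers Aire, Fezf2, Cd80, Cd40, H2-Aa and Tnfrsf11a were found in both populations. Ccl21a, a chemokine of immature mTEC, was at 0 in all mature libraries. Its immature counts were also too low to be tested, so it does not tell the populations apart here. Its symbol also names a near-identical copy under another identifier, which was not used. Whether reads of the gene were lost through that copy was not tested, so these counts do not show that Ccl21a was absent. Of 5 fibroblast, 3 endothelial, 6 thymocyte and blood, and 5 dendritic cell and macrophage markers, the summed CPM in mature libraries ran from 332 to 558, 21.7 to 30.3, 45.6 to 58.3 and 235 to 319. In immature libraries the same sums ran from 200.6 to 1966, 19.4 to 184, 3.44 to 23.4 and 14.0 to 21.7.

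Most of the cortical genes were readily counted in the cells sorted as medullary. Values are counts per 1000000 (CPM) scaled by the trimmed mean of M values (TMM). Levels of different genes are compared only as CPM per kb of exon. That length counts every annotated exon of a gene, 2426 bases for Tbata, 3214 for Foxn1 and 7445 for Ccl25. It can be longer than the transcript made, so the order of genes depends on the annotation. In the 4 mature control libraries Tbata stood highest at 218 ± 23.0 CPM per kb (SD, n = 4), above Foxn1 at 80.0 ± 1.87 and Ccl25 at 59.3 ± 5.75. Ly75 (13.8 ± 1.95), Dll4 (12.05 ± 1.93) and Prss16 (11.2 ± 0.653) formed a middle group whose ranges overlapped from one neighbour to the next. Below them came Kitl at 6.53 ± 0.905, then Psmb11 at 2.56 ± 0.746 and Cxcl12 at 2.29 ± 0.338, whose ranges overlapped, and Ackr4 at 0.966 ± 0.350.

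In immature control libraries the order changed in its middle. Tbata (55.2 ± 10.5 CPM per kb) and Foxn1 (40.9 ± 4.27) led with overlapping ranges, followed by Cxcl12 (21.0 ± 6.16) and Prss16 (19.2 ± 2.65), which overlapped. Ly75, Ackr4, Ccl25 and Kitl ran from 9.11 down to 5.71 CPM per kb, each overlapping its neighbour, and Psmb11 (2.55 ± 0.629) and Dll4 (2.04 ± 0.529) came last of the genes with usable counts. Psmb11, the gene most closely tied to the cortex, was thus about as low in both populations, at 41 to 72 counts per mature and 18 to 32 counts per immature library.

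**Figure D1:**
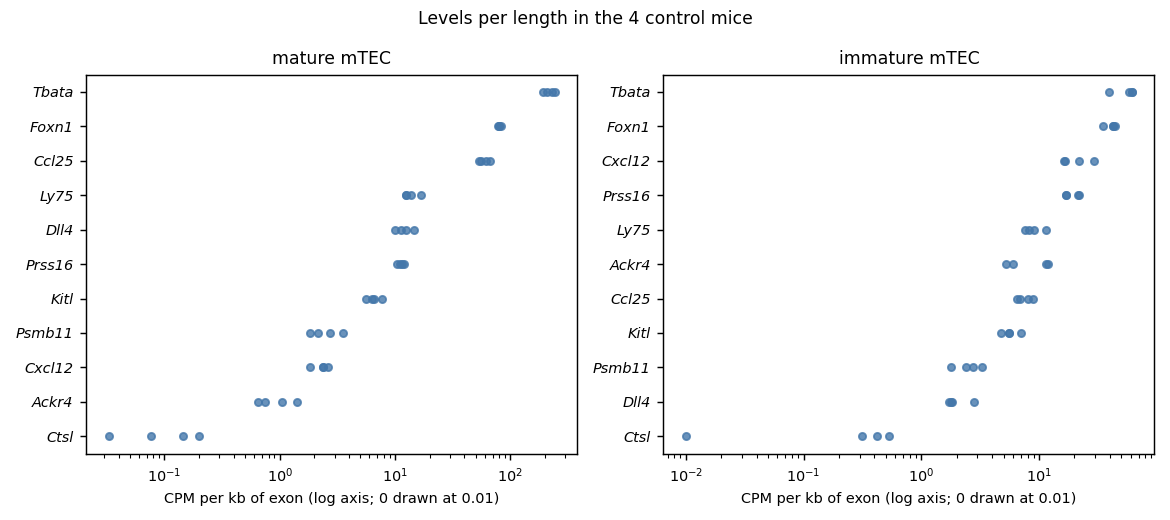
Levels of Foxn1 and the 10 genes in control mice, as CPM per kb of exon on a log axis, for mature (left) and immature (right) mTEC. Each point is 1 of 4 control libraries and genes are ordered by their mean; Tbata leads in both populations, and Cxcl12 and Ackr4 stand higher in the order in immature than in mature cells.

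Ctsl, which encodes cathepsin L, could not be read. It had 0 to 8 counts in each of the 16 libraries and did not pass the filter on low counts within either population. Its exons share 1742 bases with the antisense gene Gm47123 and 395 bases with a processed pseudogene on its own strand. Among the 14 core subunits of the 20S proteasome, a list taken up after these values were seen, Psmb5 was at 0 in all libraries while the other 13 had 126 to 1248 counts, so a count near 0 in this table does not show that a gene is not expressed. Why Ctsl was low was not tested, and it is left out of the comparisons below. Exons of other genes also overlap a gene on the opposite strand: Ackr4 shares 479 bases with Acad11 (101 to 203 counts), Ccl25 shares 204 with Elavl1, Ly75 shares 249 with Gm13571 and Dll4 shares 214 with Gm14207. Whether the authors' counting used strand could not be learned, so these values are less certain.

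Foxn1 itself was known to be higher in tKO mice when the genes were chosen. Its values in tKO against control are thus given as a description, with fitted intervals but no p-value. In mature cells of the Rbfox1 line its CPM was 255 and 257 in controls and 437 and 434 in tKO mice. In the Rbfox2 line it was 265 and 251 in controls and 364 and 411 in tKO mice. All 4 mature tKO libraries thus lay above all 4 controls. In immature cells, controls had 136, 136, 143 and 111 CPM, the Rbfox1 tKO libraries 273 and 250.1, and the Rbfox2 tKO libraries 187 and 198. The groups were again apart. Over both lines the log2 fold change of Foxn1 was 0.68 in mature cells (95% interval 0.55 to 0.81) and 0.79 in immature cells (0.60 to 0.99). Within the Rbfox1 and Rbfox2 lines it was 0.77 and 0.58 in mature cells and 0.94 and 0.62 in immature cells. These counts hold reads from any transcript assigned to Foxn1, and the part of the Cre allele in them was not tested.

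The cortical and Foxn1 target genes did not show a matching rise in mature cells. Over both lines, 0 of 9 genes passed the test, against 0.0388% of the 18021 genes tested, and 0 of 9 had an unadjusted p under 0.05; DESeq2 also called 0. Their median log2 fold change was -0.04, beside 0.0024 over all genes, and 4 of 9 were positive. Single values ran from -0.22 for Ackr4 to 0.16 for Psmb11. The highest upper bound among the 9 intervals was 0.52, that of Psmb11, beside a lower bound of 0.55 for Foxn1. The rise of Foxn1 was known beforehand, so setting these bounds side by side is a description and no test. Within the Rbfox1 line the Psmb11 interval, 0.05 to 1.01, included the Foxn1 estimate of 0.77. The 4 tKO and 4 control libraries overlapped in CPM for all 9, where 1.65% of all genes were apart.

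Among antigen-processing genes, mature Psmb11 CPM was 10.2 and 8.85 in Rbfox1 controls, 13.1 and 14.5 in Rbfox1 tKO mice, 16.9 and 13.1 in Rbfox2 controls and 12.6 and 13.6 in Rbfox2 tKO mice. Its tKO libraries were above the controls in the Rbfox1 line and within their spread or just below in the other. Prss16, the thymus-specific serine protease, had 48.1 and 46.4 CPM in Rbfox1 controls against 54.3 and 45.7 in tKO mice, and 43.5 and 49.9 in Rbfox2 controls against 38.5 and 43.7. The groups overlapped in each line. Ly75 ran from 86.3 to 115 CPM over mature controls and from 84.7 to 103 over tKO mice, with a log2 fold change over both lines of -0.05 (SE 0.0847).

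Of the signalling genes, mature Dll4 CPM was 56.0 and 47.9 in Rbfox1 controls against 49.9 and 56.9 in tKO mice, and 38.6 and 43.2 in Rbfox2 controls against 32.2 and 37.2. tKO and control overlapped in the Rbfox1 line, and both Rbfox2 tKO libraries lay below their controls. Mature Kitl ran from 32.9 to 45.7 CPM in controls and from 27.0 to 39.1 in tKO mice. The chemokine Ccl25 had 401, 413, 493 and 460.1 CPM in mature controls and 522, 385, 417 and 492 in tKO mice, so the tKO values spanned the controls. Cxcl12 ran from 14.9 to 21.5 CPM in controls and 19.2 to 20.8 in tKO mice. Tbata had 554, 506, 590 and 462 CPM in mature controls and 627, 551, 553 and 540 in tKO mice, a log2 fold change of 0.10 (95% interval -0.05 to 0.25).

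**Figure D2:**
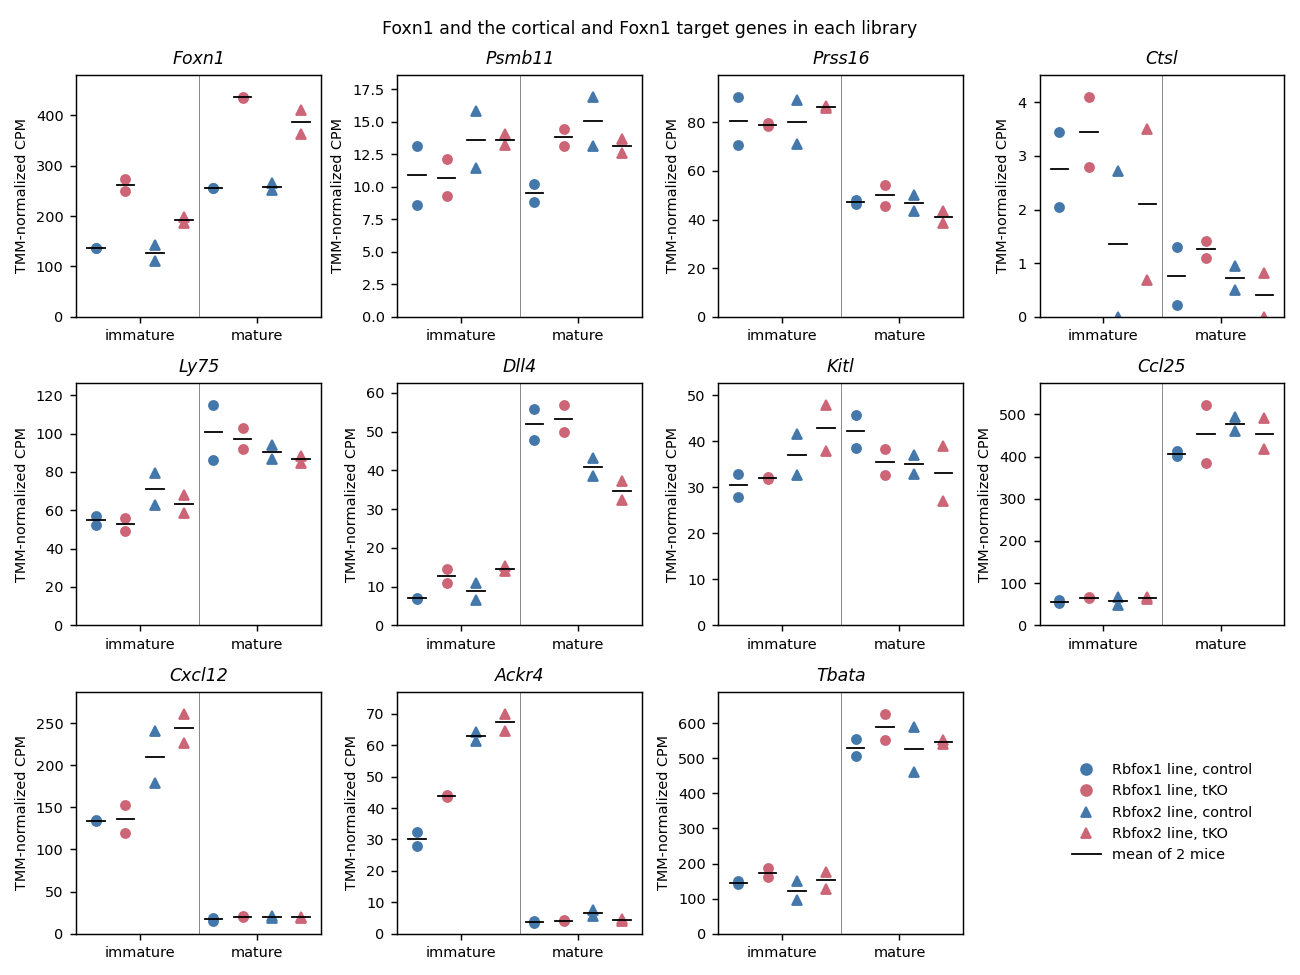
TMM-normalized CPM of Foxn1 and the 10 genes in each of the 16 libraries, by population on the x axis. Circles mark the Rbfox1 line, triangles the Rbfox2 line, blue control and red tKO, and lines the mean of 2 mice; Foxn1 is the gene in which all tKO points lie above all controls in both populations, and Ctsl lies near 0 throughout.

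Taken line by line, the mature result was the same in count. In the Rbfox1 line 0 of 9 genes passed, against 0.0222% of all genes. 1 gene, Psmb11, had an unadjusted p under 0.05, with a log2 fold change of 0.53 (95% interval 0.05 to 1.01), and 7 of 9 values were positive. In the Rbfox2 line 0 of 9 passed, against 0.0555%, with no unadjusted p under 0.05 and 1 of 9 values positive. DESeq2 called 0 in each line. The tested difference between the lines in the tKO effect passed for 0 of 9 genes, against 0.00555%; Psmb11 was the 1 gene with an unadjusted p under 0.05 (difference of log2 fold changes -0.73, 95% interval -1.40 to -0.06).

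In immature cells 0 of 9 genes passed over both lines, against 0.0919% of the 13060 genes tested, and DESeq2 also called 0. Their median log2 fold change was 0.15, beside 0.0021 over all genes, and 7 of 9 values were positive. 3 genes had an unadjusted p under 0.05, namely Dll4, Ackr4 and Tbata. The CPM of tKO and control libraries overlapped for all 9, where 2.1% of all genes were apart.

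Dll4 had the widest difference of the set. Its immature CPM was 6.89 and 6.97 in Rbfox1 controls, 14.4 and 10.8 in Rbfox1 tKO mice, 10.9 and 6.62 in Rbfox2 controls and 14.0 and 15.3 in Rbfox2 tKO mice. Within each line both tKO libraries lay above both controls, and over both lines they overlapped only at 10.8 and 10.9. The log2 fold change was 0.80 (95% interval 0.29 to 1.32), about that of Foxn1 (0.79), with unadjusted p = 0.00422 and adjusted p = 0.409. These values rest on 11 to 20 counts per control and 20 to 31 counts per tKO library. Over 16 alternative settings it stayed between 0.69 and 0.95 and passed in none.

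Ackr4 had 28.0 and 32.4 CPM in immature Rbfox1 controls against 44.2 and 43.7 in tKO mice, and 64.2 and 61.4 in Rbfox2 controls against 64.4 and 70.1. Both tKO libraries were above both controls in each line, narrowly in the Rbfox2 line, with a log2 fold change of 0.31 over both (95% interval 0.06 to 0.56, adjusted p = 0.568). Tbata had 150 and 141 CPM in Rbfox1 controls against 186 and 161, and 149 and 96.3 in Rbfox2 controls against 176 and 128, a log2 fold change of 0.29 (95% interval 0.04 to 0.53, adjusted p = 0.608). Its groups were apart in the Rbfox1 line and overlapped in the other. Immature Psmb11 (log2 fold change -0.01, 95% interval -0.50 to 0.48), Prss16 (0.04, -0.19 to 0.26) and Ly75 (-0.11, -0.34 to 0.13) lay close to 0. Ccl25 (0.21), Kitl (0.15) and Cxcl12 (0.13) were positive with intervals that included 0.

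Line by line, 0 of 9 genes passed in immature cells of the Rbfox1 line, against 0.0383% of all genes, with unadjusted p under 0.05 for Dll4 (0.86) and Ackr4 (0.54). In the Rbfox2 line 0 of 9 passed, against 0.0919%, none with an unadjusted p under 0.05, and Dll4 stood at 0.74. DESeq2 called 0 in each line. The lines did not pass the test of their difference for any of the 9, against 0.00766%, with no unadjusted p under 0.05. Markers of other cells also differed between tKO and control, without passing the test. In the Rbfox1 line 4 of 5 fibroblast markers had positive log2 fold changes (median 0.47, Pdgfrb -0.26) and 0 of 3 endothelial markers did (median -0.05). In the Rbfox2 line all 5 and all 3 were positive, with medians of 0.39 and 1.28. Over both lines their summed CPM ran from 200.6 to 1543 and 19.4 to 106 in controls, and from 376 to 1966 and 20.0 to 184 in tKO libraries. Their part in the values of Dll4 and Ackr4 was not tested.

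**Figure D3:**
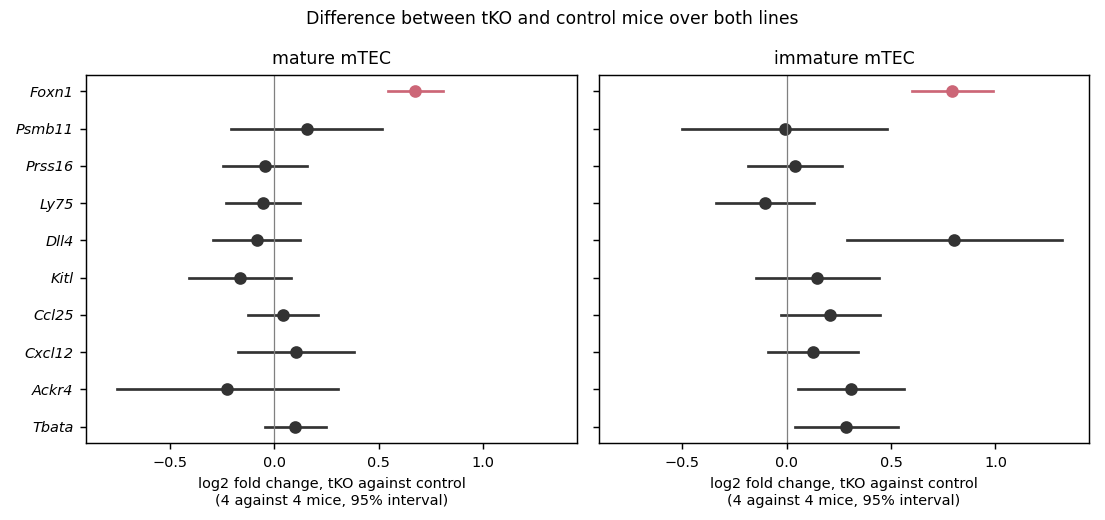
Log2 fold change of tKO against control over both lines (x axis) for Foxn1 and 9 genes in mature (left) and immature (right) mTEC. Points are estimates from 4 against 4 mice and bars 95% intervals. The rise of Foxn1 was known beforehand, so its interval is a description. In mature cells all 9 other intervals end below its start, while in immature cells Dll4 lies level with Foxn1 with a wide interval.

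No correlation with Foxn1 over the libraries is given, since Foxn1 sets tKO and control libraries apart as clusters of 4 in each population, too few to test within.

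The other genes of these pathways gave no call either. Of 6 other cortical genes, 7 measured regulators of TEC identity, 4 Notch ligands, 7 lysosomal cathepsins, and the measured proteasome subunits and thymic chemokines, none passed in any of the 6 comparisons of tKO with control. Over both lines in mature cells, median log2 fold changes were -0.03 for the other cortical genes, -0.05 for the identity regulators, 0.04 for both the Notch ligands and the cathepsins, 0.01 for the proteasome subunits and -0.30 for the chemokines and atypical receptors, with Ccl17 lowest at -0.47. In immature cells all 7 cathepsins were positive, from 0.02 for Ctsz to 0.22 for Ctsc, with a median of 0.11. None of these passed.

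Most of the set changed between immature and mature cells. In control mice 7 of 9 genes passed the test of mature against immature cells, 4 higher and 3 lower, where 68.8% of the 16750 genes tested passed. In tKO mice, which were other animals, the same 7 passed in the same directions, against 67.7% of all genes. The members' share of calls was thus close to that of all genes, and their median log2 fold change was 0.19 in controls and 0.17 in tKO mice, beside 0.05 and 0.07 over all genes.

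The chemokine Ccl25 had the largest increase. Its CPM ran from 48.8 to 66.4 in immature and from 401 to 493 in mature controls, a log2 fold change of 2.95 (SE 0.0869), and 2.81 in tKO mice. Dll4 followed at 2.55 (SE 0.166) in controls and 1.67 (SE 0.155) in tKO mice. Tbata rose by 1.98 and 1.81 and Ly75 by 0.61 and 0.68 on the log2 scale in controls and tKO mice. Foxn1 rose by 0.97 and 0.88. Each of these 5 was higher in the mature library of the same mouse in 8 of 8 mice.

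Cxcl12, Ackr4 and Prss16 fell with maturation. Cxcl12 ran from 133 to 241 CPM in immature and from 14.9 to 21.5 in mature controls, a log2 fold change of -3.17 in controls and in tKO mice. Ackr4 ran from 28.0 to 64.2 CPM in immature and from 3.45 to 7.66 in mature controls, a log2 fold change of -3.12 (SE 0.167) in controls and -3.62 (SE 0.163) in tKO mice. Prss16 fell by less, from 70.6 to 90.7 CPM in immature to 43.5 to 49.9 in mature controls, with log2 fold changes of -0.78 and -0.85. All 3 were lower in the mature library in 8 of 8 mice. Ccl25 and the gene of its scavenger receptor Ackr4 thus moved in opposite directions, and so did the chemokine genes Ccl25 and Cxcl12.

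Psmb11 and Kitl did not pass. Psmb11 differed by -0.03 in controls (95% interval -0.47 to 0.41) and 0.17 in tKO mice (-0.24 to 0.58), and was higher in the mature library in 6 of 8 mice. Kitl differed by 0.19 (-0.07 to 0.46) and -0.09 (-0.39 to 0.20), and was higher in 5 of 8 mice.

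**Figure D4:**
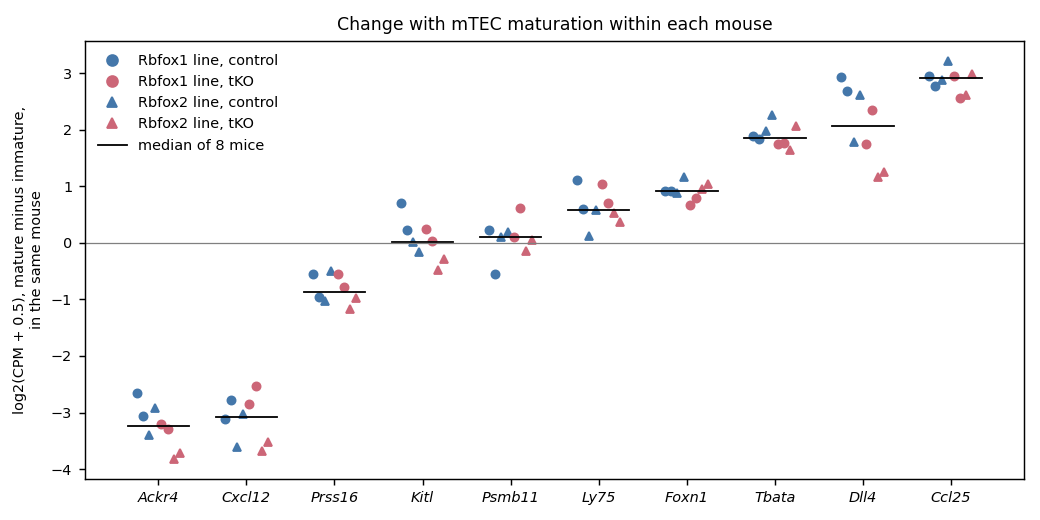
Difference in log2(CPM + 0.5) between the mature and the immature library of the same mouse, for Foxn1 and 9 genes ordered by their median. Each point is 1 of 8 mice (circles Rbfox1 line, triangles Rbfox2 line, blue control, red tKO) and lines are medians; Ackr4, Cxcl12 and Prss16 lie below 0 and Ly75, Foxn1, Tbata, Dll4 and Ccl25 above 0 in every mouse.

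The change with maturation was not shown to differ with genotype. The test of that difference passed for 0 of 10 genes, Ctsl included, and for 0% of the 17442 genes tested. Dll4 came nearest, with a smaller increase in tKO mice by 0.89 on the log2 scale (difference -0.89, 95% interval -1.40 to -0.38, unadjusted p = 0.00139, adjusted p = 0.627). Within mice, the Dll4 increase was 1.17 and 1.26 in Rbfox2 tKO mice, 1.75 and 2.35 in Rbfox1 tKO mice and 1.78 to 2.93 in controls, so 3 of 4 tKO mice lay below the lowest control, 1 of them barely. Ackr4 also had an unadjusted p under 0.05 (difference -0.51, adjusted p = 0.957).

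Related genes are set beside these changes, in tests that 68.8% of all genes passed in controls and 67.7% in tKO mice. The counts below are thus given gene by gene and not as results about the families. Of the 4 other Notch ligands, all were lower in mature controls, led by Jag2 (-3.08), and 3 in tKO mice, while Dll4 was higher. Among other cortical genes Cd83 (3.27) and Enpep (2.16), which encodes the Ly51 antigen of the gate, were higher in mature controls, and Krt18, Slc46a2 and Il7 (-2.28), a cytokine for thymocytes, were lower. Cathepsins split into 4 higher, led by Ctsh (2.72), and 3 lower, led by Ctsd (-0.73). The regulators of TEC identity were mostly lower, with 6 of 8 falling, led by the growth factor receptor Fgfr2 (-3.95), and Tbx1 (2.77) rising. Of the other chemokines and receptors, Ccl17 (5.85), Ccl22, Ccl19 and Ackr2 were higher in mature controls. The symbol Ccl19, like Ccl21a, also names a near-identical copy that was not used, so its level is less certain. The directions of all these related genes were also found in tKO mice, except that Dll3 and Ccl19 missed the test there.

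Markers of other cells moved with maturation as well, where 68.8% of all genes passed in controls and 67.7% in tKO mice. All 4 measured dendritic cell and macrophage markers and all 3 measured thymocyte and blood markers were higher in mature controls, with sums of 235 to 319 CPM against 14.0 to 21.7, and 45.6 to 58.3 against 3.44 to 23.4, over all libraries. All 3 endothelial markers were lower, and of 5 fibroblast markers 3 were lower (Col3a1, Pdgfra, Col1a2) and 2 higher (Col1a1, Pdgfrb) in controls, with the same 3 lower and Pdgfrb higher in tKO mice. The defining fibroblast markers were above 0 in both populations. Cxcl12 is widely expressed by thymic stroma, Ccl17 and Ccl22 by dendritic cells. The part of such cells in the changes with maturation was not tested.

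The lines were also compared, a comparison added after values were seen. In both populations the members' share of calls was near that of all genes, so the calls are given gene by gene and not as a result about the set. In mature cells Dll4 was the 1 gene of 9 to pass, against 13.5% of all genes, and was lower in the Rbfox2 line. Its CPM ran from 47.9 to 56.9 in the 4 Rbfox1 libraries and from 32.2 to 43.2 in the 4 Rbfox2 libraries, which did not overlap. The log2 fold change was -0.47 (SE 0.100, adjusted p = 0.00331), and it kept its call in all alternatives except that of a fold change over 2.

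In immature cells 3 of 9 genes were higher in the Rbfox2 line, against 23.5% of all genes. Cxcl12 had 133, 135, 152 and 119 CPM in the Rbfox1 line and 241, 179, 261 and 227 in the Rbfox2 line. Ackr4 had 28.0, 32.4, 44.2 and 43.7 CPM against 64.2, 61.4, 64.4 and 70.1. In both genes the lines were apart, with log2 fold changes of 0.74 (SE 0.103, adjusted p = 5.2e-05) and 0.83 (SE 0.121, adjusted p = 8.48e-05). Ly75 also passed, narrowly (0.33, adjusted p = 0.0423). Its call was lost with DESeq2 (adjusted p = 0.163), with library totals, with either other filter, in the fit of all 16 libraries, and without any of 5 libraries, which were Rbfox1 control replicates 2 and 3, Rbfox1 tKO replicate 2, Rbfox2 control replicate 1 and Rbfox2 tKO replicate 2. Foxn1 was lower in the Rbfox2 line (-0.28, adjusted p = 0.0367), a call lost with DESeq2 and without any of 5 single libraries.

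The immature libraries of the lines also differed in other markers. The 5 fibroblast markers summed to 200.6 to 471 CPM in the Rbfox1 line and 1216 to 1966 in the Rbfox2 line, and all 5 passed as higher (log2 fold changes 1.33 to 2.26). The 3 endothelial markers were higher too (1.49 to 1.86). Of 6 medullary markers 5 were lower, led by Aire (-2.71), and H2-Aa was higher. The 3 epithelial markers summed to 5465 to 6103 CPM in the Rbfox1 line and 7409 to 7867 in the Rbfox2 line. Of these, Krt14 (0.62) and Krt5 passed as higher and Epcam (0.0043) did not. Of 6 other cortical genes Krt18, Slc46a2 (0.48) and Il7 passed as higher, and Cd83 was lowest (-0.79) without passing. In this test 23.5% of all genes passed. Cxcl12 and Ackr4 thus stood higher in the libraries with more fibroblast, endothelial and keratin transcript. The part of any such cells in these values was not tested. Prss16 (0.06, 95% interval -0.17 to 0.28) did not pass between the same libraries.

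**Figure D5:**
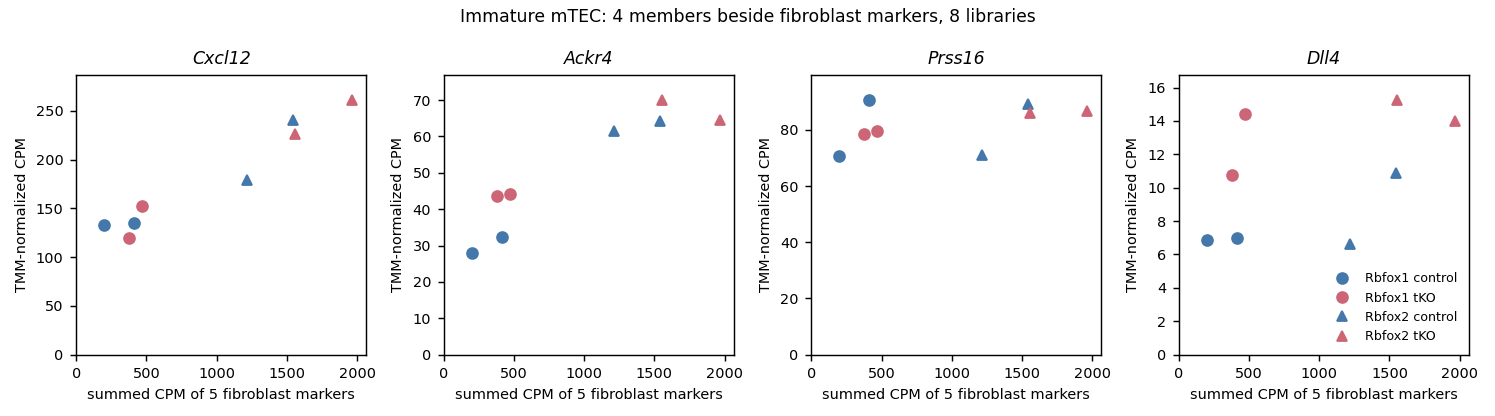
CPM of Cxcl12, Ackr4, Prss16 and Dll4 (y axes) against the summed CPM of 5 fibroblast markers (x axes) in the 8 immature libraries. Circles are the Rbfox1 line, triangles the Rbfox2 line, blue control and red tKO; the lines are apart in fibroblast markers, in Cxcl12 and in Ackr4, and overlap in Prss16 and Dll4.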

How the data were processed

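mTEC of 8 mice were sorted into mature and immature cells, and stranded polyadenylated RNA libraries were sequenced in pairs of reads. The deposited table holds counts per gene that were not normalized. The authors made them with tools that the submitters' processing notes name as HISAT2 2.1.0, Picard 2.10.9 and featureCounts 1.6.0 on build mm10. By the column labels and the methods, reads were de-duplicated and down-sampled. The read number in the labels was lower for immature than for mature cells. The strand setting of the counting was not given in the sources used here. Rows were matched to symbols of GENCODE M21 for 53360 of 53464 Ensembl identifiers, and the 35943 assembled loci stayed in the fits without names.

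Counts were fitted over all rows with edgeR 4.0.16 (R 4.3.3), with TMM factors, filterByExpr at a minimum count of 10 and a quasi-likelihood test, and p-values were adjusted by Benjamini-Hochberg over all rows tested. A gene passed at an adjusted p under 0.05. SE is the log2 fold change over the square root of F, and intervals are 95%. Libraries were grouped by the labels into line, genotype and population, and each tKO comparison used the 8 libraries of a population. Controls were sex-matched littermates by the methods, and which mice shared a litter was not stated. Mature and immature libraries of the same mouse deviated together (correlation 0.116 to 0.203 over 15498 genes), and the pairing comes from the mouse named in the labels. The main tests of maturation, and of its difference with genotype, had no term for the mouse, so their errors and p-values leave out this pairing. A block by mouse was an alternative. Differences within a mouse used a pseudocount of 0.5 CPM. The scripts were tested on simulated data. Alternatives were DESeq2 1.42.0, its size factors, library totals, other filters, sex as a covariate, other sets of libraries, the replicate block and leaving out each replicate.

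The genes, the lists beside them and the tests were chosen with earlier results of these data known. All members and Foxn1 are named, and of the other lists the genes past the threshold or at the ends of the range. The comparison of lines and the list of proteasome subunits were added after values were seen. Promoter windows and their coordinates are from RefSeq, and gene overlaps from GENCODE M21 (GRCm38, the build also called mm10).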

Additional observations from a re-analysis of the deposited data

How the results depend on the processing

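The counts of genes past the threshold were 0 under every alternative for the 6 comparisons of tKO with control and the tests of differences between lines and genotypes that were rerun. For mature against immature they ran from 5, with a fold change over 2, to 8, where Kitl (0.36 in controls, at least 10 counts in every library) or Ctsl was added. Between lines, with a fold change over 2 the count fell from 1 to 0 in mature and from 3 to 0 in immature cells, and without single replicates it ran from 1 to 2 in mature cells, with Ccl25 added without Rbfox1 tKO replicate 2. With the replicate block, which pairs tKO and control mice by number within a line, the 6 counts stayed at 0; mice of a number share sex, and the labels name no litter (correlation 0.0450 to 0.210), and the block by mouse left 7 genes in each test of maturation and changed no other call. Of 1520 values for single genes under alternatives, 1446 kept direction and call, 51 changed sign, 19 lost and 4 gained a call. No value that changed sign passed the test in either setting, and the cause was not tested.

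Psmb11, tKO against control, was -0.0206 with no filter and -0.0106 with all 16 libraries in immature Rbfox2 cells, and over both lines 0.00104 with the replicate block and 0.00284 with sex as a covariate. In maturation of controls Psmb11 was 0.0259 with DESeq2, 0.0238 with its size factors, 0.0383 with library totals, 0.0313 with no filter and 0.130 at 10 counts in every library, where Kitl in tKO mice was 0.0403. Between immature lines, library totals gave -0.0309 for Prss16 and -0.0733 for Ccl25, and 10 counts in every library gave -0.00267 for Ccl25.

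Leaving out 1 replicate gave these ranges where a sign changed. Within a population that was 1 library, and in maturation it was both libraries of 1 mouse. In mature Rbfox1 cells they were -0.0773 to 0.354 for Ccl25, -0.0748 to 0.158 for Dll4, -0.242 to 0.178 for Ly75 and -0.0466 to 0.194 for Prss16. In immature Rbfox1 cells they were -0.171 to 0.172 for Cxcl12, -0.0425 to 0.187 for Kitl, -0.161 to 0.0313 for Ly75, -0.202 to 0.159 for Prss16 and -0.296 to 0.308 for Psmb11. In mature Rbfox2 cells they were -0.201 to 0.0434 for Ccl25, -0.142 to 0.0166 for Cxcl12, -0.378 to 0.159 for Kitl and -0.114 to 0.237 for Tbata. In immature Rbfox2 cells they were -0.0208 to 0.411 for Ccl25, -0.303 to 0.0267 for Ly75, -0.0249 to 0.291 for Prss16 and -0.193 to 0.256 for Psmb11. Over both lines they were -0.0753 to 0.113 for Ccl25, -0.141 to 0.0350 for Ly75 and -0.128 to 0.0207 for Prss16 in mature cells, and -0.0327 to 0.136 for Prss16 and -0.127 to 0.125 for Psmb11 in immature cells. In maturation of controls they were -0.219 to 0.187 for Psmb11. Between lines they were -0.143 to 0.00278 for Tbata in mature cells, and -0.0859 to 0.0890 for Ccl25 and -0.00499 to 0.151 for Prss16 in immature cells.

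In immature cells over both lines, a Dll4 difference of the size of that of Foxn1 did not pass the test. It rests on 4 tKO against 4 control mice, 2 mice per condition, and on 11 to 31 counts of Dll4 per library. The p-values measure only the spread between these mice.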
